A study of Drosophila melanogaster with 24 samples.

Results

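The genes described here encode the proteins of the cytosolic ribosome and their paralogs in Drosophila melanogaster. They were taken from the array's gene annotation as all symbols beginning with RpL or RpS and a number, or with RpLP, on a probe set that names 1 gene. This gave 41 genes, 25 named for the large subunit and 16 for the small subunit, of 11982 genes named on the array. Of these, 12 are copies or relatives of another ribosomal protein gene, marked by a letter, a number or "-like" in the symbol, and the other 29 are general ribosomal protein genes. The current reference gene table holds 92 symbols of this form. The other 51 are not named on a single-gene probe set and were not analysed here, among them RpL7, RpL22, RpL24, RpL34b, RpS5a, RpS10b and RpS19a, the parents of 7 of the copies.

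A ribosome has a small subunit, which reads the mRNA, and a large subunit, which forms the peptide bonds, and each ribosomal protein is needed in a fixed proportion to the others. In Drosophila many loci for these proteins cause the Minute phenotype when 1 gene copy is lost, with thin bristles and slow growth. Several of the genes exist as a pair, in which 1 copy is expressed in most tissues and the other mainly in the ovary or the testis. Egg production places a large load of ribosomes in the ovary, since nurse cells supply the oocyte with the ribosomes of the early embryo.

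RNA of whole adult flies of 0 to 3 days was measured on 24 Affymetrix arrays. They cover 4 genotypes, all in a w background, with 3 female and 3 male arrays for each. The over-expression flies carried w;Act5C-GAL4/UAS:OE_Dhr96OE_35, in which the promoter of Act5C, active in most tissues, drives GAL4 and through it the nuclear receptor Hr96 (also Dhr96) from 1 insertion line. Their control carried w;Act5C-GAL4/+. The labelled knockdown flies carried w;arm-GAL4/+;UAS:RNAi_Dhr96Hp_3/+, in which the armadillo promoter drives a hairpin against Hr96, also 1 line, and their control carried w;arm-GAL4/+. The 3 arrays of a group came from 3 batches of diet, which are shared by all 8 groups. Nothing in the labels gives the number of flies per array.

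Values are log2 of the deposited intensities, and all differences are on the log2 scale, where 1 is a doubling. They were tested with limma over all 18769 probe sets, and a gene is called where its adjusted p was under 0.05. Hr96 itself measured 9.15 in over-expression females against 7.75 in Act5C-GAL4 control females (limma adjusted p = 0.0333). In males it measured 8.76 with over-expression against 6.67 in the control (limma adjusted p = 7.39e-04). It differed by 0.01 between the labelled knockdown and the arm-GAL4 control over both sexes (limma adjusted p = 0.999), so that group is named by its label here. Array medians ran from 53.5 to 60.9 intensity units in females and from 63.4 to 66.3 in males, and arrays of a group correlated at 0.974 to 0.992.

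Females and males differed at every one of the 41 genes. In the mean of the 4 genotypes 34 genes were higher and 7 lower in females, where limma called 49.4% of all probe sets higher and 19.8% lower. All 34 and all 7 also separated the 12 female from the 12 male arrays without overlap, which 20.7% of all probe sets did upward and 11.9% downward. The 29 general genes were all higher in females, by 0.37 to 1.09 with a median of 0.69, against a median of 0.17 over all probe sets. The 12 copies went both ways, 5 higher and 7 lower in females, over a range from -4.88 to 3.88.

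**Figure D1:**
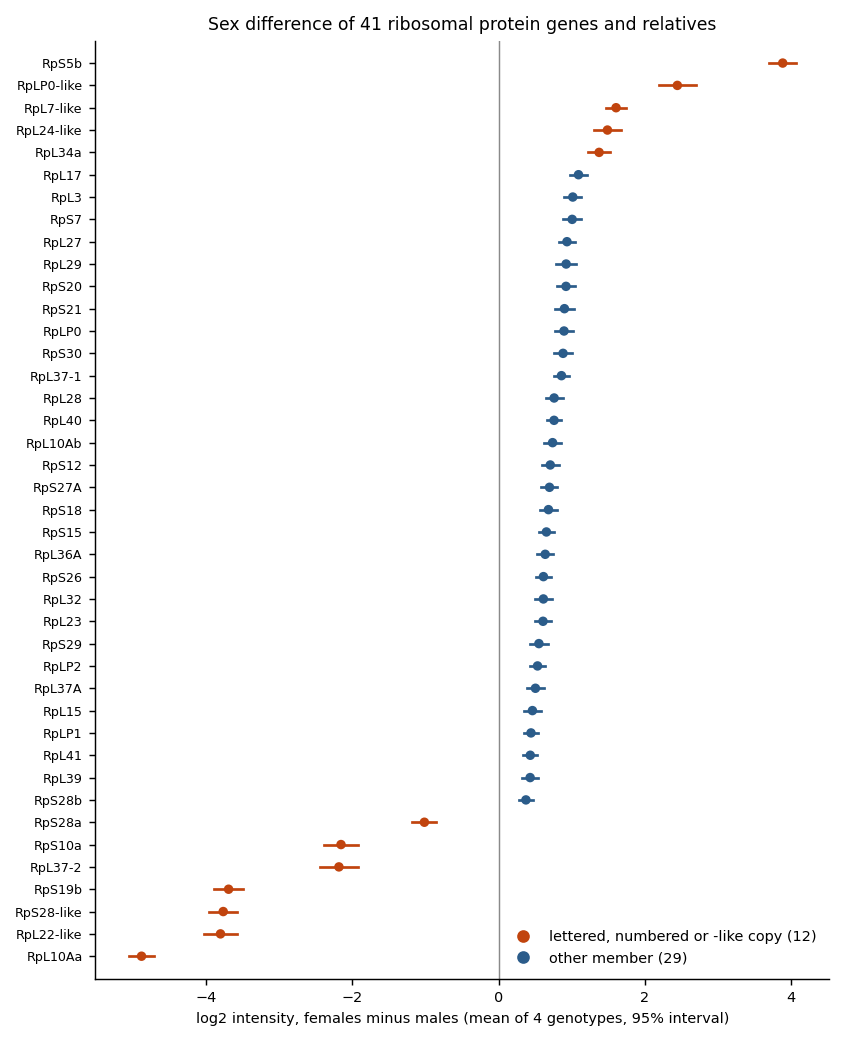
Female minus male difference in log2 intensity of each of the 41 genes, as the mean of 4 genotypes with its 95% interval from limma. The 29 general genes lie between 0.37 and 1.09, and the 12 copies fill both ends, from RpL10Aa at -4.88 to RpS5b at 3.88.

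Among the copies lower in females, RpL10Aa differed most. It is a paralog of RpL10Ab, which builds the L1 stalk where spent tRNA leaves the large subunit. It measured 4.94, 5.26 and 5.82 (lowest, median and highest of 12 arrays) in females, against 10.0, 10.1 and 10.5 in males. The ranges lay far apart, and the fitted difference was -4.88 (SE 0.084, limma adjusted p = 3.53e-23), or 29.5-fold lower in females. By genotype RpL10Aa differed by -4.78 with over-expression, -4.77 in Act5C-GAL4 controls, -4.67 in labelled knockdown flies and -5.32 in arm-GAL4 controls.

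RpL22-like, a paralog of the large subunit protein RpL22 known in Drosophila for its expression in male germ cells, measured 4.23, 4.78 and 5.12 in females, against 8.02, 8.37 and 9.26 in males. Its difference was -3.80 (SE 0.11, limma adjusted p = 3.07e-19). The male values were the more spread of the 2 sexes, and the genotypes are compared further on. RpS19b, a copy of the small subunit head protein RpS19a, measured 4.98, 5.48 and 5.93 in females, against 8.81, 9.09 and 9.63 in males. It was lower in females by 12.9-fold (-3.69, SE 0.096, limma adjusted p = 7.46e-20), and no female array reached a male one.

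RpS28-like and RpS28a are both paralogs of RpS28b, a small protein beside the path by which mRNA leaves the small subunit. RpS28-like measured 3.93, 4.31 and 4.71 in females, against 7.56, 8.10 and 8.68 in males, a difference of -3.77 (SE 0.090, limma adjusted p = 1.70e-20). In 3 of the 4 genotypes its female mean lay below 4.38, the lowest lower quartile of any array, so the size of its difference is uncertain. The female means of RpL10Aa, RpL22-like, RpS19b and RpS10a lay above 4.38 but below 5.74, the lowest median of a female array. Their differences and folds are thus also less certain in size than in direction. RpS28a measured 5.83, 6.30 and 6.43 in females, against 6.78, 7.24 and 7.61 in males, a difference of -1.02 (SE 0.079, limma adjusted p = 7.66e-11). RpS28a was thus the least different of the 7, at 2.02-fold.

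RpL37-2, the numbered partner of the zinc-binding large subunit protein RpL37-1, measured 5.60, 6.03 and 6.52 in females, against 7.70, 8.33 and 8.56 in males (difference -2.18, SE 0.12, limma adjusted p = 2.67e-13). RpS10a, a copy of RpS10b in the small subunit, measured 4.45, 5.10 and 5.69 in females, against 6.87, 7.22 and 7.69 in males (difference -2.16, SE 0.11, limma adjusted p = 6.06e-14). Both were about equally lower in females, and the sexes did not overlap for either gene.

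Of the 5 copies higher in females, RpS5b stood first. It is a copy of RpS5a, a small subunit protein at the tRNA exit site, and in Drosophila is known for its expression in the ovary. RpS5b measured 11.8, 12.8 and 13.1 in females, against 8.52, 8.82 and 9.21 in males. The difference was 3.88 (SE 0.088, limma adjusted p = 5.40e-21), or 14.8-fold, and by genotype 3.63 with over-expression, 4.02 in Act5C-GAL4 controls, 3.99 in labelled knockdown flies and 3.89 in arm-GAL4 controls. RpL34a, whose partner RpL34b was not analysed here, measured 11.2, 11.7 and 11.8 in females, against 10.00, 10.2 and 10.5 in males. Its difference of 1.37 (SE 0.071, limma adjusted p = 4.24e-14) was the smallest of the 5.

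The other 3 are more distant relatives, each named for a large subunit protein. In yeast the relatives of RpLP0-like, RpL7-like and RpL24-like act in the nucleolus in assembling the large subunit and are replaced or released before it works. RpLP0-like measured 8.15, 9.10 and 9.22 in females, against 5.85, 6.53 and 7.06 in males (difference 2.44, SE 0.12, limma adjusted p = 1.72e-14). RpL7-like averaged 10.4 in females and 8.81 in males (difference 1.60, SE 0.063, limma adjusted p = 2.67e-16). RpL24-like averaged 10.9 in females and 9.39 in males (difference 1.49, SE 0.087, limma adjusted p = 4.04e-13). All 3 differed by more than any of the 29 general genes, of which RpL17 was highest at 1.09.

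**Figure D2:**
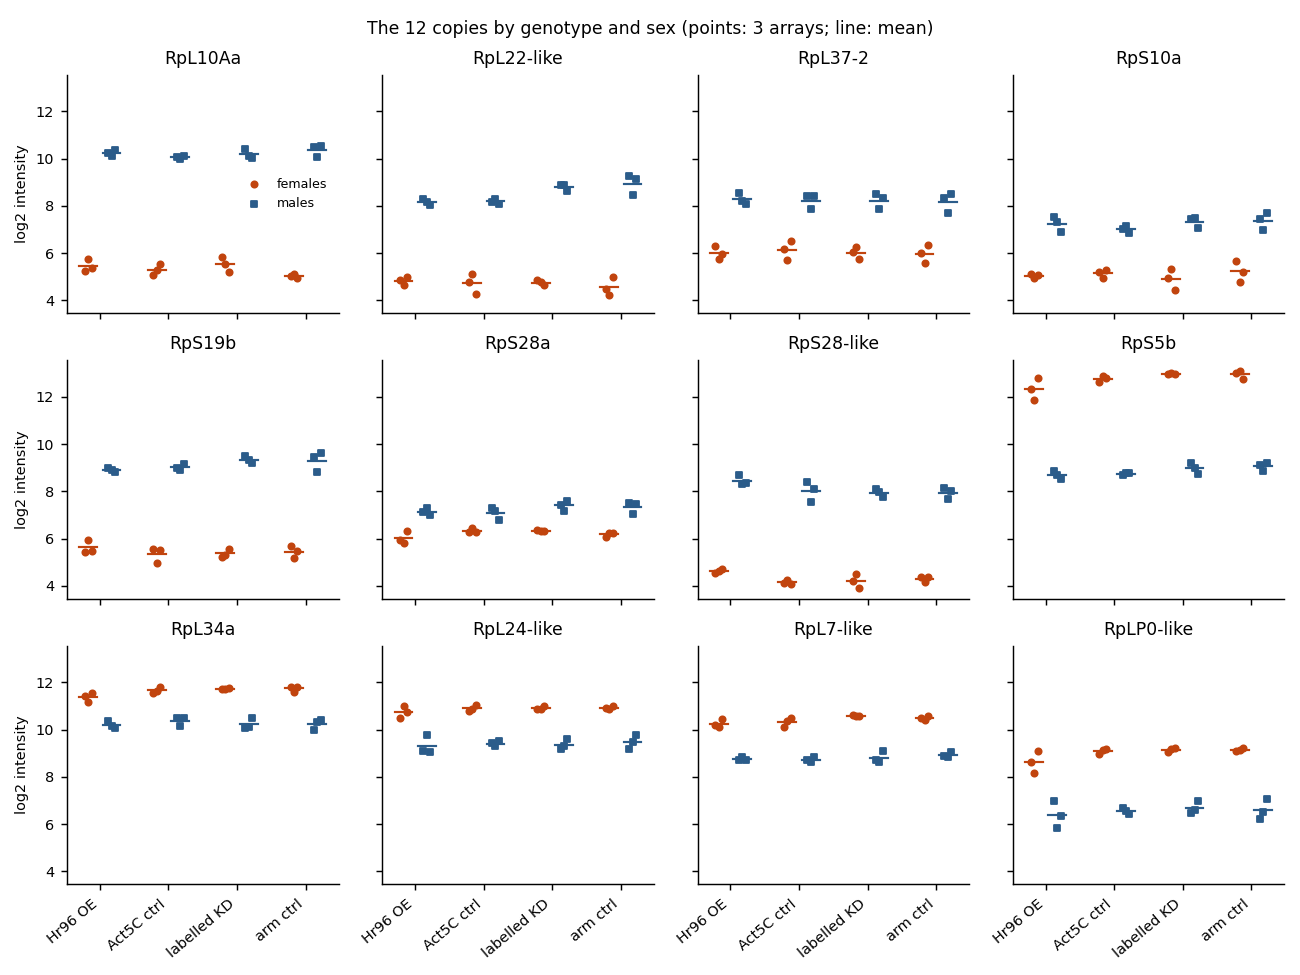
Log2 intensity of the 12 copies on every array, by genotype, with females (circles) left of males (squares) and a line at the mean of 3 arrays. In the first 7 panels, from RpL10Aa to RpS28-like, the male arrays lie above the female arrays, and in the last 5, from RpS5b to RpLP0-like, below them.

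The 29 general genes formed a narrow band. The largest differences among them were those of RpL17, which lines the exit tunnel, at 1.09 (SE 0.059, limma adjusted p = 9.15e-14), RpL3, next to the peptidyl transferase centre, at 1.01 (SE 0.056, limma adjusted p = 1.53e-13), and the small subunit protein RpS7 at 1.00 (SE 0.058, limma adjusted p = 2.84e-13). RpL17 measured 12.4, 12.7 and 12.8 in females, against 11.3, 11.6 and 11.8 in males. RpL27 followed at 0.93, RpL29 at 0.92 and RpS20, in the head of the small subunit, at 0.92. These top members belong to both subunits.

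At the low end stood RpS28b at 0.37 (SE 0.048, limma adjusted p = 3.78e-07), RpL39 and RpL41, the shortest proteins of the large subunit, at 0.43 each, the stalk protein RpLP1 at 0.44, and RpL15 at 0.46. RpS28b measured 13.3, 13.4 and 13.5 in females, against 12.8, 13.1 and 13.1 in males. Of the stalk, on which elongation factors dock, the base RpLP0 differed by 0.89 and its partners RpLP1 and RpLP2 by 0.44 and 0.53. RpL40 and RpS27A, which are made as fusions to ubiquitin, differed by 0.76 and 0.69, and RpS30, made as a fusion to a ubiquitin-like protein, by 0.88. The 18 general genes of the large subunit had a median of 0.69 and the 11 of the small subunit a median of 0.69.

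The size of the difference went with the position of the probe set on the intensity scale. Over the 29 general genes, all with a mean of 12.1 or more, the mean log2 intensity and the female minus male difference correlated at r = -0.84 (Spearman rho -0.83). These points share the same arrays and lie near the top of the intensity scale, and whether brightness itself limited the differences was not tested. The 144 other probe sets in that range had a median of 0.32, with 80 called higher and 26 lower in females. These could include probe sets of the 51 ribosomal protein genes not analysed here, since 4720 tested probe sets carry no gene name. Probe sets carry different probes, so these intensities do not rank the genes by amount of RNA.

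**Figure D3:**
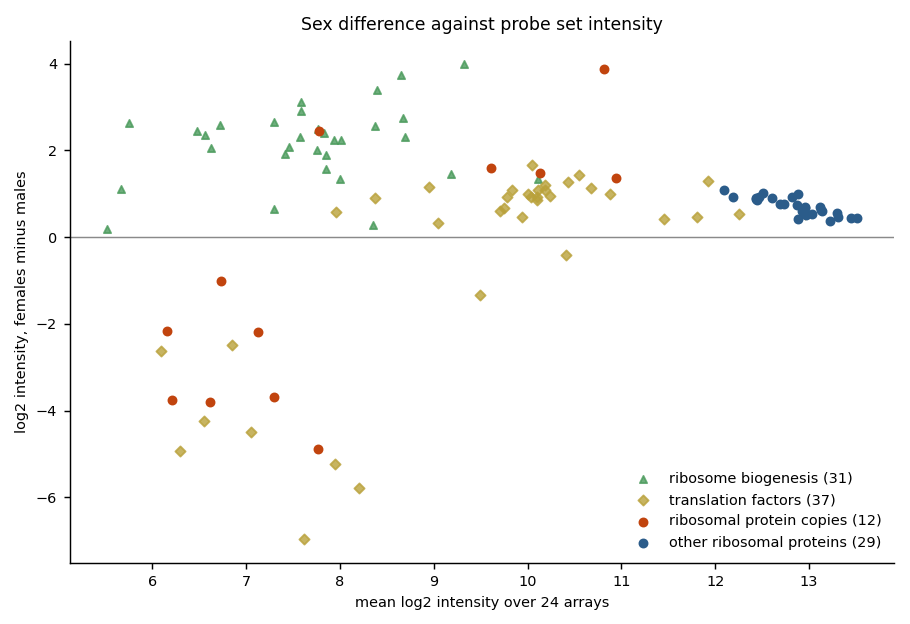
Female minus male difference (vertical axis, log2) against mean log2 intensity over 24 arrays (horizontal axis) for the 29 general ribosomal protein genes, the 12 copies, 37 translation factor genes and 31 ribosome biogenesis genes. The general genes crowd at the bright end between 0.37 and 1.09, the copies lie at lower intensity on both sides of 0, and the biogenesis genes all lie above 0.

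Several genes had more than 1 probe set, and these did not always agree in size. For RpL3 the dimmer probe sets gave 2.08 and 1.13, for RpS30 1.64 and for RpS7 0.14 (limma adjusted p = 0.14). RpS29, a zinc-binding small subunit protein, gave 0.55 and 0.45 on its bright probe sets, but -1.12 on a dim one that averaged 3.67 in females and 4.79 in males. With the mean over its probe sets, RpS29 measured -0.04 in place of 0.55 (limma adjusted p = 0.519), the only call of the 41 in the mean of 4 genotypes lost in any alternative. Probe sets naming a member and another gene were left out by the rule and cannot be assigned to 1 gene. They gave -0.32 for euc with RpLP0 (limma adjusted p = 0.0429) and 0.05 for CG34164 with RpL7-like (limma adjusted p = 0.48). The one naming a snoRNA with RpL28 gave 1.58.

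The sex difference was present in each genotype. All 34 genes were called higher and all 7 lower in females within each of the 4 genotypes. Limma called 32.4% of all probe sets higher and 14.1% lower within over-expression flies, 34.3% and 15.5% within Act5C-GAL4 controls, 31.2% and 17.3% within labelled knockdown flies, and 33.1% and 16.4% within arm-GAL4 controls. The median of the 29 general genes was 0.61 with over-expression, 0.66 in Act5C-GAL4 controls, 0.74 in labelled knockdown flies and 0.77 in arm-GAL4 controls. In the mean of 4 genotypes their median was 0.70 in diet batch 1, 0.70 in batch 2 and 0.67 in batch 3, and all 41 genes kept their direction in each batch. Across the 29 genes the differences of any pair of genotypes correlated at r = 0.87 to 0.95, a description only, since the same probe sets gave both values.

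The weakest of these calls were those of RpS28b and RpL15 in Act5C-GAL4 control flies. RpS28b differed there by 0.26 (limma adjusted p = 0.0292). Without 1 array the adjusted p of RpS28b was 0.0619 (Act5C-GAL4 control females replicate 1), 0.0781 (females replicate 2), 0.0746 (males replicate 2) or 0.0623 (males replicate 3), all from limma. RpL15 differed by 0.34 (limma adjusted p = 0.0159), and lost its call without males replicate 2 (adjusted p = 0.0857) or females replicate 3 (adjusted p = 0.111).

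The sex difference also depended on how arrays were scaled. The deposited arrays did not share 1 distribution, since the array medians given above were lower in females without overlap. With the arrays brought to 1 distribution the median of the 29 genes was 0.50 (all probe sets 0.17). With the arrays shifted to a common median it was 0.88, but that shift also moved the median of all probe sets to 0.35. The share of all calls that were higher in females was 71.4% as deposited and 81.7% after the shift. The counts of 34 and 7 in the mean of 4 genotypes were the same under both.

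The arrays measured whole flies, so more cells of a type and more RNA per cell cannot be told apart. Markers of the gonads moved with sex as follows, and their part in the differences was not tested. All 9 measured ovary germline markers were higher in females, and their mean log2 ranged from 8.15 to 9.38 on female arrays, against 4.93 to 5.33 on male arrays. All 9 follicle cell markers were higher in females, at 8.35 to 12.5, against 5.46 to 5.94 in males, as were the 3 yolk protein genes, at 12.5 to 13.6, against 4.90 to 6.33.

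All 16 testis markers were lower in females, at a mean of 4.59 to 4.96, against 9.39 to 9.86 in males. All 10 accessory gland genes were lower in females, at 4.11 to 4.93, against 11.7 to 12.4 in males. Of 5 muscle markers 1 was higher and 3 lower in females, of 5 neuron markers 0 were higher and 1 lower, and of 5 fat body markers 0 were higher and 1 lower. The mean of the 29 general ribosomal protein genes lay between 13.1 and 13.3 on female arrays, against 12.3 to 12.6 on male arrays, so the sexes did not overlap on this mean either.

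In 5 cases both a copy and its parent were measured, and the copy minus parent difference within each array could be compared between the sexes. For the more distant relative RpLP0-like, the parent is only the gene it is named for, RpLP0. Females differed from males in all 5 pairs. Female minus male, the within-array difference changed by -5.62 for RpL10Aa minus RpL10Ab, -4.14 for RpS28-like minus RpS28b, -3.04 for RpL37-2 minus RpL37-1 and -1.39 for RpS28a minus RpS28b. It changed by 1.55 for RpLP0-like minus RpLP0, higher in females. Each of the 5 exact two-sided permutation tests, which exchanged sexes within a genotype over 160000 arrangements, gave p = 1.25e-05, the smallest possible, and the same value after adjustment over 5 pairs.

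The parents themselves were all higher in females, RpL10Ab by 0.74, RpL37-1 by 0.86, RpLP0 by 0.89 and RpS28b by 0.37. In 4 of the 5 pairs copy and parent thus differed between the sexes in opposite directions. For RpL10Aa the within-array difference to RpL10Ab ran from -8.43 to -7.34 in females, against -2.63 to -1.84 in males. For RpLP0-like the difference to RpLP0 ran from -4.67 to -3.86 in females, against -6.47 to -5.16 in males.

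**Figure D4:**
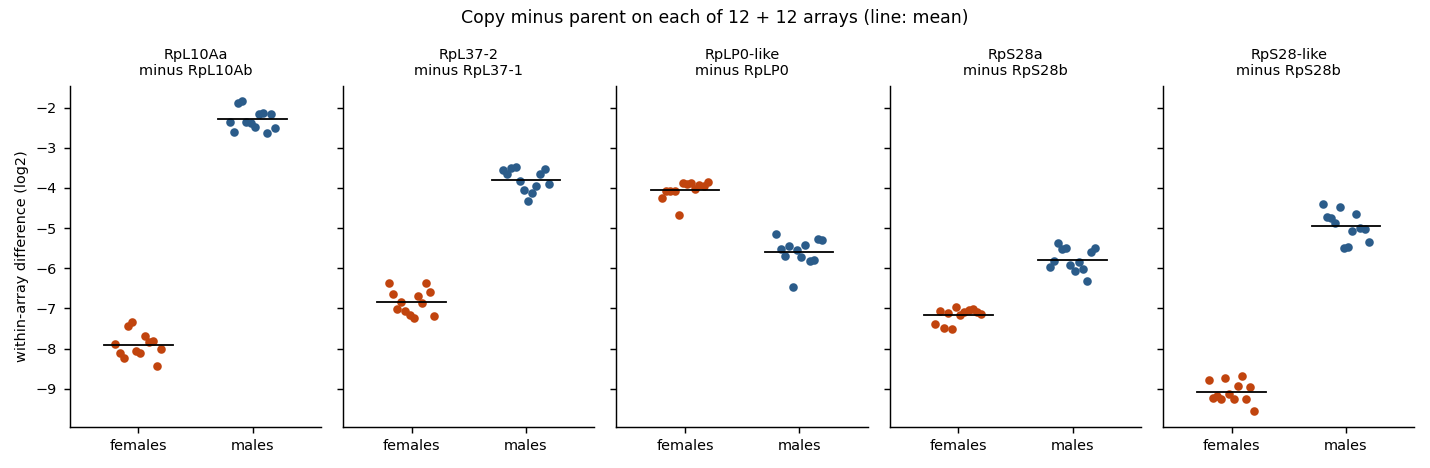
Log2 intensity of the copy minus that of its parent on each of 12 female and 12 male arrays, with a line at the mean. The height within a panel depends on the probes and has no meaning by itself, and the gap between the sexes is the comparison. Females lie below males for 4 pairs, by -5.62 for RpL10Aa at most, and above males for RpLP0-like, by 1.55.

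Other genes of the translation machinery were read in the same way between the sexes. All 3 measured ribosome-associated proteins were higher in females, the scaffold Rack1 by 1.13 and the nascent chain proteins Nacalpha by 1.37 and bic by 0.15. Of 37 measured translation factors 27 were higher and 10 lower in females, with a median of 0.68. Limma called 49.4% of all probe sets higher and 19.8% lower in this comparison. Those higher included the initiation factor subunits eIF3d1 at 1.66 and eIF3b at 1.43 and the elongation factor subunits eEF1gamma at 1.30 and eEF1delta at 1.27.

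The 10 lower in females were the following. The cap-binding proteins eIF4E5, eIF4E3, eIF4E4 and eIF4E7 differed by -6.96, -5.78, -5.23 and -4.93, while eIF4E1, the general cap-binding protein, differed by 1.00. The factors eIF4H2, eIF3d2, eIF3f2 and eIF3g2 differed by -4.50, -4.24, -2.63 and -2.49, where eIF3f1 and eIF3g1 differed by 0.93 and 1.10. The remaining 2 were eIF4G2 at -1.33 and eEF1alpha2 at -0.41.

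The 31 measured ribosome biogenesis genes were all higher in females, with a median of 2.30. Nop60B, the pseudouridine synthase of rRNA, differed by 3.99, the nucleolar phosphoprotein Nopp140 by 3.75, the box C/D snoRNP protein Nop56 by 3.39 and the nucleolar protein Surf6 by 3.13. The smallest was Ns2 at 0.18. Of 69 mitochondrial ribosomal protein genes 67 were higher in females and 0 lower, with a median of 0.94. Both counts stand beside the same 49.4% of all probe sets called higher and 19.8% called lower. RpLP0-like, RpL7-like and RpL24-like, at 2.44, 1.60 and 1.49, lay within the range of the biogenesis genes. So did every other ribosomal protein gene and copy that was higher in females, so this was not particular to them.

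Between genotypes 0 of the 41 genes were called in the fit without diet batch. For over-expression against its control, limma called 1.88% of all probe sets over both sexes, 0.874% in females and 1.17% in males, and 0 of the 41 genes in each. For the labelled knockdown against its control it called 0.0586% in the mean, 0.0213% in females and 0.0266% in males, and again 0 members. For the Act5C-GAL4 against the arm-GAL4 control it called 0.868% in the mean, 0.17% in females and 0.73% in males, and 0 members. The over-expression effect differed between females and males at 0.165% of all probe sets, and at 0 members. With diet batch as a block in the fit, RpL27 and RpS28-like were called for over-expression over both sexes, and RpL27 in females.

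At an unadjusted p under 0.05, over-expression had 4 of the 41 genes over both sexes (RpL27, RpS28-like, RpL34a at -0.22 and RpS12 at -0.17), where 14.3% of all probe sets passed. It had 3 in females (RpL27, RpS28-like and RpS5b), where 16.4% passed, and 2 in males (RpS12 and RpS28-like), where 12.8% passed. The labelled knockdown had 1, RpL10Aa in females, at 0.49 (limma adjusted p = 0.93), where 4.24% passed, and 0 over both sexes (3.31%) and in males (2.18%). The control lines had 2 over both sexes, RpL28 at -0.17 and RpL7-like at -0.19 (9.23% of all probe sets), 0 in females (3.95%) and 1 in males, RpL22-like (9.66%). The difference of over-expression effects between the sexes had 0, where 14.5% passed. In each of these comparisons the share of members was below that of all probe sets.

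The 95% intervals, each for 1 gene and not adjusted for their number, show what size of difference could have been missed. They are given here only for the general genes in the mean of both sexes, not for the copies or for 1 sex. For the 29 general genes in the mean of both sexes they ran from -0.44 to 0.20 for over-expression, from -0.31 to 0.23 for the labelled knockdown and from -0.33 to 0.27 for the control lines. The medians of the 41 genes were -0.09 for over-expression, -0.01 for the labelled knockdown and -0.0018 for the control lines. For over-expression the median was -0.05 with arrays brought to 1 distribution and -0.04 with this done within each sex. In over-expression females it was -0.11, and -0.066 and -0.065 under these scalings, where the median of all probe sets was -0.04 as deposited. With the arrays shifted to a common median it was -0.14 in these females, and the median of all probe sets was -0.07.

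Markers of other tissues differed between the same female groups, and their part in the members' values was not tested. The mean of the 5 muscle markers ran from 11.2 to 11.6 in over-expression females, against 10.3 to 11.1 in control females. The mean of the 5 fat body markers ran from 7.997 to 9.39 in over-expression females, against 7.58 to 7.84 in control females, also without overlap. How often other probe sets or lists separated these groups was not counted. Limma called 0 markers of either list, and 5 of the muscle and 4 of the fat body markers had an unadjusted p under 0.05, where 16.4% of all probe sets did.

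**Figure D5:**
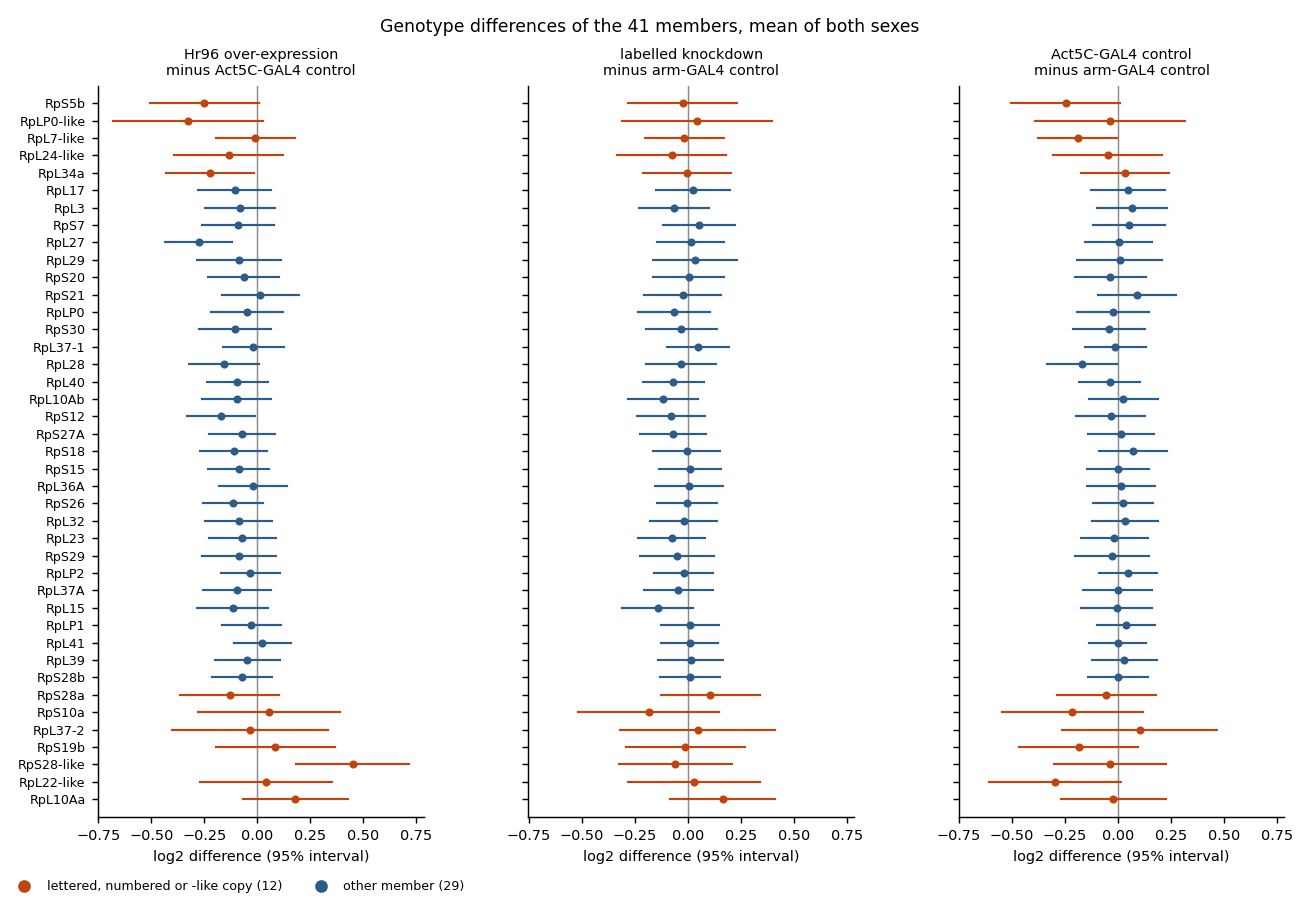
Difference of the 41 genes in the mean of both sexes for over-expression minus Act5C-GAL4 control (left), labelled knockdown minus arm-GAL4 control (middle) and Act5C-GAL4 minus arm-GAL4 control (right), in log2 with 95% intervals from limma. RpL27 at -0.28 and RpS28-like at 0.45 lie farthest from 0 for their error in the left panel, and 0 of the 41 genes passed the adjusted threshold in any panel.

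RpL27, a large subunit protein, came nearest to a call. It measured 12.52, 12.65 and 12.73 in over-expression females, against 12.91, 13.09 and 13.05 in control females, without overlap. In males it measured 11.96, 11.86 and 11.86 with over-expression, against 12.01, 12.11 and 12.06 in controls, also without overlap. The gene was picked as the nearest to a call, and the share of all probe sets that separated in this way was not counted. The difference over both sexes was -0.28 (SE 0.076, limma adjusted p = 0.0665), and with diet batch as a block in the fit the adjusted p from limma was 0.0302. In females alone it was -0.38, with a limma adjusted p of 0.0988, and 0.0451 with the block. Over both sexes and without over-expression females replicate 3 the limma adjusted p was 0.0495. Without replicate 2 it was 0.121 over both sexes and 0.291 in females.

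RpS28-like measured 4.54, 4.62 and 4.71 in over-expression females, against 4.14, 4.26 and 4.06 in control females. In males it measured 8.68, 8.33 and 8.36 with over-expression, against 8.41, 7.56 and 8.12 in controls. The female groups did not overlap, at the dim end of the scale, and the male groups did. How many of all probe sets separated these female groups was not counted. The difference was 0.45 (SE 0.13, limma adjusted p = 0.0774), and the adjusted p was 0.0475 with the diet batch block and 0.0188 without Act5C-GAL4 control males replicate 1, both from limma. Without over-expression females replicate 2 the limma adjusted p of RpS28-like was 0.152.

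Its difference to its parent RpS28b within each array was also higher with over-expression, by 0.52. The exact two-sided permutation test over 400 arrangements gave p = 0.005, the smallest possible, and 0.025 after adjustment over 5 pairs. With exchanges limited to arrays of the same diet batch, the adjusted p was 0.156. That limit leaves so few arrangements that the pair again had the smallest p possible before adjustment. By this pair alone the adjusted p could not have fallen under 0.05, so the limited test decides nothing here. With exchanges again within each sex, some arrays left out raised the adjusted p to 0.05. These were over-expression males replicate 1 (difference 0.50), replicate 2 (0.51) or replicate 3 (0.56), and control males replicate 2 (0.41). The other 4 pairs had adjusted p-values of 0.0875 (RpL10Aa, 0.28), 0.408 (RpLP0-like, -0.28), 0.856 (RpS28a, -0.06) and 0.92 (RpL37-2, -0.02) by the same exact test.

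RpS5b measured 12.34, 11.85 and 12.79 in over-expression females, against 12.61, 12.89 and 12.79 in control females. The groups overlapped, and the difference was -0.44 (SE 0.18, limma adjusted p = 0.222). The array of over-expression females replicate 2 was the lowest of the 12 female arrays for RpS5b and RpLP0-like. This was not particular to them, since it was the lowest for other members too, among them RpL34a and RpL17. The mean of the general ribosomal protein genes (13.085, against 13.094 in replicate 1) and that of the translation factors (9.144) were also lowest on this array. The same array was the lowest for the mean of the ovary germline markers (8.15), the follicle cell markers (8.35, the other females at 10.3 or more) and the ribosome biogenesis genes (8.13). Without it the difference of RpS5b was -0.20 (limma adjusted p = 0.738) and without replicate 3 it was -0.67 (limma adjusted p = 0.0297).

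Without over-expression females replicate 2 the counts of 34 higher and 7 lower between the sexes were the same, RpS5b differed between the sexes by 3.94, and 0 members were called for over-expression. Over-expression females had germline marker means of 8.52, 8.15 and 8.70, against 8.75, 9.34 and 8.83 in control females. With all arrays, replicate 2 included, the 31 ribosome biogenesis genes had a median difference of -0.34 in over-expression females against their control. In that fit 0 were called, and 15 of the 31 had an unadjusted p under 0.05, where 16.4% of all probe sets passed. This median and count were not recomputed without replicate 2. The mean of the 31 genes was 8.462, 8.126 and 8.774 in over-expression females, against 8.641, 8.855 and 8.919 in control females. The part of the ovary markers in the values of RpS5b and RpLP0-like was not tested.

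RpL22-like differed most between the control lines, and only in males was its unadjusted p under 0.05. In males it measured 8.18, 8.30 and 8.10 in Act5C-GAL4 controls, against 9.26, 8.44 and 9.13 in arm-GAL4 controls, without overlap. The difference was -0.75 (SE 0.21, limma adjusted p = 0.127), and -0.9995 (limma adjusted p = 0.0253) without arm-GAL4 control males replicate 2. In labelled knockdown males, which share the arm-GAL4 driver, it measured 8.90, 8.90 and 8.62, and in over-expression males, which share the Act5C-GAL4 driver, 8.29, 8.16 and 8.02. The male arrays of the 2 driver lines did not overlap for RpL22-like, with 8.30 the highest for Act5C-GAL4 and 8.44 the lowest for arm-GAL4. The gene was picked for its difference between the control lines. The share of all probe sets that separated in this way was not counted, so the separation cannot be judged against it.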

How the data were processed

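RNA of whole flies was hybridised as biotin-labelled cRNA to 24 arrays, per the labels' protocols. The deposited table holds intensity values, not logged, which the authors made with RMA, per the submitters' processing notes. The sources used here do not give the settings of RMA. RMA as usually run corrects background, gives arrays 1 distribution and combines probes. The deposited arrays do not share 1 distribution, with medians of 53.5 to 66.3, and the sources used here do not say why. Log2 was taken of the deposited intensity with a pseudocount of 0. The 183 control probe sets were left out, and 18769 were tested. For a gene with several probe sets, the one with the highest mean was used. The number of arrays limits the precision.

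Tests were two-sided contrasts of 8 group means in limma 3.58.1 (R 4.3.3, lmFit and eBayes, 16 residual and 5.19 prior degrees of freedom), and p-values were adjusted by Benjamini-Hochberg across all probe sets. Pairs used exact permutation. Both were tested on simulated data. Python 3.11.15, numpy 2.4.6, pandas 2.3.3 and matplotlib 3.10.9 made tables and plots. The members and lists, and the rule that all copies, stalk proteins and the 5 largest differences each way are named, were chosen with earlier results of these data known. RpL40, RpS27A, RpS30, RpS12 and genotype cases with an unadjusted p under 0.05 were named after their values were seen.

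Same-numbered arrays share a diet batch, per the labels, which pairs them. Over 30 pairs of arrays their deviations from group means correlated at -0.07 to 0.59 (mean 0.21), and 22 were over 0.1. Alternatives were the batch block, a minimum mean log2 of 5, other scalings, trended variance, array weights, averaged probe sets, only the compared groups, and leaving out each array. The labels call the 3 arrays of a group biological replicates.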

Additional observations from a re-analysis of the deposited data

How the results depend on the processing

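In the mean of 4 genotypes, 40 of the 41 sex differences kept direction and call in every alternative run. RpS29 with all its probe sets averaged turned to -0.0417, and to -0.0333 in Act5C-GAL4 control, -0.102 in labelled knockdown and -0.1003 in arm-GAL4 control flies, because its dim probe set entered the mean. In over-expression flies it lost its call at 0.0688 (limma adjusted p = 0.671). Of 3772 recomputed sex differences, 3747 kept direction and call, 21 kept only the direction and 4 reversed. With arrays brought to 1 distribution, calls within a genotype were lost for RpL39 and RpS28b in all 4 genotypes, RpL37A in over-expression and Act5C-GAL4 control flies, and RpL15 in Act5C-GAL4 control flies. With only the compared groups in the fit, RpL15, RpS28b and RpL39 each lost 1. The cause was not tested. All 135 recomputed sex differences of the pairs kept their call.

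Of 7134 recomputed genotype differences, 12 became calls. For over-expression in the mean of both sexes, 1 gene was higher (RpS28-like) and 1 lower (RpL27) with diet batch as a replicate block, with quantile normalization within each sex and with array weights, and 1 was higher with quantile normalization over all arrays. In females, 1 was lower with the replicate block. Leaving out 1 array gave 0 to 1 higher and 0 to 1 lower in the mean, 0 to 1 lower in females, and 0 to 1 lower between control males. The block called 320 probe sets higher and 275 lower in the mean, against 175 and 178 without it. It changed no other call of a member. For the over-expression difference of the RpS28-like pair, the value of 0.5218 was the same with the replicate block, where its adjusted p by the exact test was 0.156. With the block, this pair alone could not have reached an adjusted p under 0.05. Leaving out 1 array gave differences of 0.4143 to 0.6084.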
